A study of Mus musculus with 4 samples.

Results

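The genes described here are 10 regulators of microtubules: the stathmins Stmn1, Stmn2, Stmn3 and Stmn4, the microtubule-associated proteins (MAPs) Mapt, Map1b, Map2 and Map4, and the doublecortin family members Dcx and Dclk1. They were chosen by gene symbol, and each of the 10 matched a single row among the 27178 genes of the table. Libraries were made from mouse embryonic gut at 11.5 days post coitum. Embryos of both groups carried Wnt1-tdT, a red fluorescent reporter that labels the neural crest and its descendants, and tdT-positive cells were isolated by flow cytometry. The wavefront group (2 libraries) came from the leading edge of the crest cells that colonise the gut, and the trailing group (2 libraries) from cells 1 to 1.5 mm behind it. The reporter does not separate neurons from progenitors or glia, and the labels do not say whether replicates were separate embryos, litters or pools, so the spread behind each p-value is that between libraries and could be technical. The comparison asks how mRNA levels differ between the front and the cells that follow it.

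Microtubules are polymers of alpha and beta tubulin that grow and shrink at their ends. Stathmins bind free tubulin dimers and promote shrinkage, whereas tau, MAP1B, MAP2 and MAP4 bind along the lattice and stabilise it, and doublecortin and its kinase relative bind between protofilaments. Stmn2, Stmn3, Mapt, Map2 and Dcx are known mainly from neurons, where they serve neurite growth and neuronal migration, while Stmn1 and Map4 are also expressed in dividing cells of many kinds.

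Members of each family share coding sequence, which bears on how far short reads can tell them apart. The most similar 60-base stretch of the 4 stathmin coding sequences is printed here, on GRCm38 with GENCODE M21 transcripts. It lies in exon 4 of 5 of Stmn1, Stmn2 and Stmn3 and in exon 6 of 7 of Stmn4. Capitals mark the 41 positions at which all 4 genes have the same base.
Stmn1 (chr4:134472858-134472917, plus strand): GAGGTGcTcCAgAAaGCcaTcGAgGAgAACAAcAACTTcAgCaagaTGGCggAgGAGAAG
Stmn2 (chr3:8554846-8554905, plus strand): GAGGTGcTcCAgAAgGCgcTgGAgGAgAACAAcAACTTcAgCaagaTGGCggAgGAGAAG
Stmn3 (chr2:181307294-181307353, minus strand): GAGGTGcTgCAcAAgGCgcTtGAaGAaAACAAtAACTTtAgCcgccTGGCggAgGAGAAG
Stmn4 (chr14:66357900-66357959, plus strand): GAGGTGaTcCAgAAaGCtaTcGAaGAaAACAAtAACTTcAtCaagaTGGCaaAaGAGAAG

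Over this stretch Stmn2 matched Stmn1 at 56 of 60 positions, Stmn4 matched it at 51 and Stmn3 at 46. The longest run of identical bases between any transcripts of Stmn1 and Stmn2 was 43 bases, and among the other stathmin pairs it was 16 to 21 bases. A read inside the 43-base run cannot be assigned to either gene, and how such reads were counted is not given in the sources used.

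Tau, Map2 and Map4 share a carboxy-terminal repeat region. Their most similar 60 coding bases span 2 neighbouring exons in each gene, so the coordinates below enclose an intron, and capitals mark the 40 positions common to all 3 genes.
Mapt (chr11:104322520-104328010, plus strand): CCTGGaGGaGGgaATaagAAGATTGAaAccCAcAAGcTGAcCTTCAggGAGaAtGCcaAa
Map2 (chr1:66438346-66438830, plus strand): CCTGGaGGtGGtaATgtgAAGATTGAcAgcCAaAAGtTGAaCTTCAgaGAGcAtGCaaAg
Map4 (chr9:110078081-110079836, plus strand): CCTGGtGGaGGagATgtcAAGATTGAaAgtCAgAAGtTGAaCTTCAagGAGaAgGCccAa

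Runs of identical bases between transcripts of these 3 genes reached 14 to 17 bases. Between transcripts of Dcx and Dclk1 the longest shared run was 23 bases.

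The 4 libraries were shallow. Outside ribosomal RNA they held 114972 to 452144 reads, the lowest being wavefront replicate 2, in which ribosomal RNA took 55.5% of reads against 15.6 to 26.1% in the other libraries. Whole reads were recovered from the deposited CPM (counts scaled to a fixed library total), and 3 reads, the floor used here, correspond to 5.52 to 11.5 CPM. All 8 markers of enteric crest as a whole, Ret and Sox10 among them, were detected in every library. Of 7 of them tested by counts, 0 passed in edgeR.

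Stmn2, Stmn3, Mapt and Dcx were lower at the wavefront by a test on reads, and 0 genes passed the test on CPM. The planned test for CPM, limma on log2(CPM + 1) with Benjamini-Hochberg adjustment, called 0 of the 10 genes and 0 of 12519 genes in all (0%). At an unadjusted p under 0.05 it had 6 of the 10, all lower. Of all genes it had 858 in either direction and 724 lower (5.78% of all genes). The second test, edgeR's quasi-likelihood test on recovered reads after scaling by trimmed means (TMM), covered 5759 genes and 9 of the 10 members. It called Stmn2, Stmn3, Mapt and Dcx lower, 0 higher, and 5 did not pass. Among all genes tested by counts 1.34% were called lower, 0.399% higher and 1.74% in either direction. The verbs rose and fell are used for calls of the count test, levels are CPM after TMM scaling (scaled CPM), and fold changes are wavefront over trailing. Stmn3, Mapt and Dcx reached 10 reads only in the trailing libraries. Stmn2 reached them in both trailing libraries and in 1 wavefront library. All of them passed the filter through the group in which they were high. Their number among the genes tested is therefore not evidence by itself. In bulk samples, fewer cells of a type and less RNA per cell cannot be told apart.

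**Figure D1:**
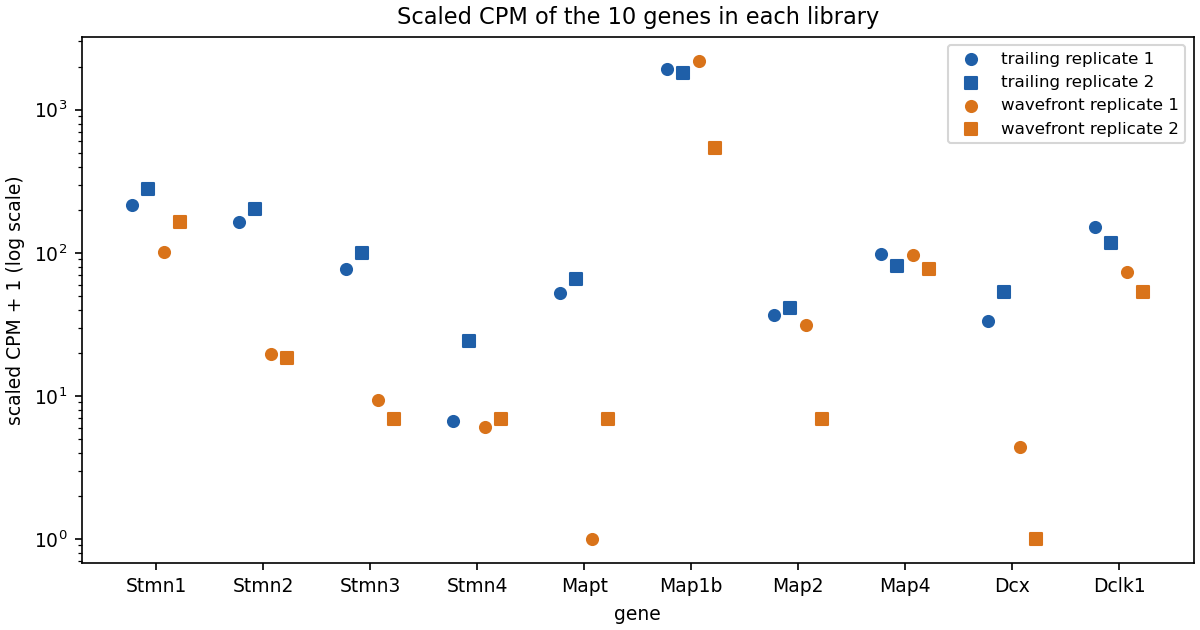
Scaled CPM plus 1 on a log axis for each of the 10 genes, with 1 point per library (trailing in blue, wavefront in orange; circles for replicate 1, squares for replicate 2). Stmn2, Stmn3, Mapt and Dcx have both wavefront points far below both trailing points, while Map4 overlaps and Map1b is low only in wavefront replicate 2.

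Stmn2, a membrane-anchored stathmin of growing axons (chromosome 3, 8509360 to 8561606, plus strand), had 86 and 96 reads in trailing replicates 1 and 2 and 11 and 3 in wavefront replicates 1 and 2. As scaled CPM these were 163 and 201 against 18.5 and 17.5. Both wavefront libraries stood far under either trailing library, and wavefront replicate 2 was at the floor of 3 reads. How close the wavefront libraries were to each other depends on the scaling, since their deposited CPM were 20.3 and 11.5. The mean went from 182 ± 27.1 to 18.0 ± 0.667 scaled CPM (SD, n = 2 each), which is -3.30 ± 0.40 on the log2 scale (SE; adjusted p = 1.25e-07 in edgeR). In limma it was -3.53 ± 0.45 (adjusted p = 0.376). Stmn2 passed under all 11 alternatives to the count test, DESeq2 and the authors' deposited p-values included. The log2 fold change deposited by the authors was -2.22, and the alternatives fitted here ran from -3.49 to -3.14.

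Stmn3, a second neuronal stathmin that is anchored to Golgi and vesicle membranes (chromosome 2, 181306459 to 181314500, minus strand), had 40 and 47 trailing reads and 5 and 1 wavefront reads. Scaled CPM were 75.8 and 98.5 against 8.40 and 5.84, so the groups were well apart. The log2 fold change was -3.43 ± 0.51 (edgeR adjusted p = 8.57e-06). In limma it was -3.69 ± 0.56 (adjusted p = 0.607). The adjusted p was 0.0494 in DESeq2. It was 0.0924 from the authors' deposited p-values, adjusted here, the only 1 of 11 alternatives in which Stmn3 did not pass.

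Stmn4, another stathmin of the nervous system (chromosome 14, 66344296 to 66361680, plus strand), was near the floor. It had 3 and 11 trailing reads and 3 and 1 wavefront reads, with overlapping scaled CPM of 5.68 and 23.1 against 5.04 and 5.84. The scaled ratio of trailing to wavefront reads was 2.67 (95% exact binomial counting interval 0.838 to 11.1), so no difference was detectable at this depth. It did not reach the filter of the count test. Intervals here cover counting error only, since reads carried no molecular identifiers.

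Stmn1, the cytosolic stathmin of proliferating and differentiating cells (chromosome 4, 134468320 to 134473843, plus strand), had 114 and 132 trailing reads and 60 and 28 wavefront reads. Scaled CPM were 216 and 277 against 101 and 164, so the groups did not overlap. The log2 fold change was -0.98 ± 0.32 and did not pass (adjusted p = 0.126 in edgeR), nor did limma's -1.21 ± 0.39 (adjusted p = 0.680). None of 11 alternatives to the count test called Stmn1, with values from -1.25 to -0.58.

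Within the stathmins Stmn1 took a larger share of the reads at the wavefront and Stmn2 a smaller one, and this share does not depend on how libraries are scaled. Stmn1 gave 46.9% of the 243 stathmin reads of trailing replicate 1 (95% exact binomial interval 40.5 to 53.4%) and 46.2% of 286 in trailing replicate 2 (40.3 to 52.1%). For the wavefront the shares were 75.9% of 79 reads (65.0 to 84.9%) and 84.8% of 33 reads (68.1 to 94.9%). Both wavefront intervals lay above both trailing ones. Stmn2 gave 35.4 and 33.6% of trailing reads against 13.9 and 9.09% of wavefront reads. Stmn3 gave 16.5 and 16.4% against 6.33 and 3.03%, with overlapping intervals, and for Stmn4 the values themselves overlapped, lying between 1.23 and 3.85% over the 4 libraries. Expressed per 100 Stmn1 reads of the same library, Stmn2 had 75.4 and 72.7 reads in trailing cells and 18.3 and 10.7 at the wavefront, and Stmn3 had 35.1 and 35.6 against 8.33 and 3.57. With 2 libraries against 2, an exact two-sided permutation test of such a ratio cannot give a p below 0.333.

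**Figure D2:**
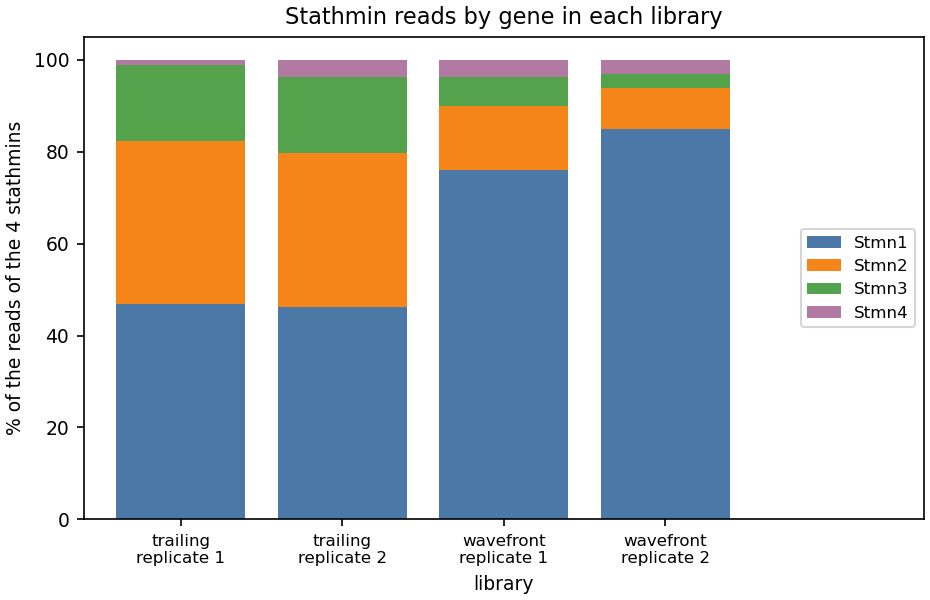
Stacked bars give the percentage of all stathmin reads that came from each of the 4 genes in each library. Stmn1 makes up 46.2 to 46.9% of each trailing bar and 75.9 and 84.8% of the wavefront bars, where the segments of Stmn2 and Stmn3 are narrower.

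Among the MAPs, Mapt fell and the other members did not pass. Mapt, which encodes the axonal protein tau (chromosome 11, 104231390 to 104332090, plus strand), had 27 and 31 trailing reads and 0 and 1 wavefront reads. Both wavefront values were under the floor of 3 reads. The scaled ratio of trailing to wavefront reads was 44.2, with a wide 95% exact binomial counting interval of 7.63 to 1777 because it rests on 1 wavefront read (edgeR adjusted p = 3.08e-05). The adjusted p was 0.0509 without wavefront replicate 1 and 0.300 with the authors' deposited p-values. An antisense gene, Gm11659, overlaps Mapt by 8460 bases and has no values here, and the kit does not keep the strand.

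Map1b, an early MAP of growing axons (chromosome 13, 99421446 to 99516540, minus strand), had by far the most reads of the 10 genes, with 1024 and 858 in trailing cells and 1311 and 93 at the wavefront. Scaled CPM were 1939 and 1798 against 2202 and 543. Wavefront replicate 1 stood above both trailing libraries and wavefront replicate 2 far below them, so the wavefront mean of 1373 had an SD of 1173. The log2 fold change was -0.42 ± 0.43 (edgeR adjusted p = 0.843). In limma it was -1.06 ± 1.06 (adjusted p = 0.825). The edgeR value was 0.29 without wavefront replicate 2 (adjusted p = 0.832) and -1.78 without wavefront replicate 1 (adjusted p = 0.00258), fits in which the lone wavefront library is assumed to vary like the trailing ones. The direction for Map1b therefore rested on which wavefront library was used.

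Map2, the MAP of dendrites and cell bodies (chromosome 1, 66175273 to 66442583, plus strand), was also split at lower depth, with 19 reads in each trailing library against 18 and 1. Scaled CPM were 36.0 and 39.8 against 30.2 and 5.84. Wavefront replicate 1 was close to the trailing libraries. The log2 fold change was -0.67 ± 0.49 (edgeR adjusted p = 0.732), and it moved to -0.27 without wavefront replicate 2 and to -2.63 without wavefront replicate 1, passing in neither. The antisense gene Gm10558, which overlaps Map2, had 4 reads in all.

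Map4, the MAP of non-neuronal and dividing cells (chromosome 9, 109931460 to 110083955, plus strand), had 51 and 38 trailing reads and 57 and 13 wavefront reads. Scaled CPM of 96.6 and 79.6 in trailing cells overlapped those of 95.7 and 76.0 at the wavefront. The log2 fold change was 0.01 ± 0.32 (edgeR adjusted p = 0.996), and its sign changed with the scaling (-0.21 with library size alone). Tau and Map4, which share the repeat region printed above, thus differed in their values: per 100 Map4 reads, trailing cells had 52.9 and 81.6 Mapt reads (95% intervals 31.9 to 86.0 and 49.1 to 135). Wavefront cells had 0 (0 to 6.69) and 7.69 (0.181 to 51.2). The interval of wavefront replicate 2, with 13 Map4 reads, overlapped those of the trailing libraries.

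Dcx, the doublecortin of migrating and newborn neurons (chromosome X, 143855842 to 143933311, minus strand), had 17 and 25 trailing reads and 2 and 0 wavefront reads. Both wavefront libraries were again below the floor. The scaled ratio of trailing to wavefront reads was 16.0 (95% exact binomial counting interval 4.17 to 137), resting on 2 wavefront reads (edgeR adjusted p = 0.00116). Dcx did not pass in edgeR without trailing replicate 2, at a log2 fold change of -3.53. The authors' deposited Wald test gave it an unadjusted p of 0.00352. Adjusted here over 14589 genes, that p became 0.9997 and did not pass.

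Dclk1, which joins doublecortin domains to a protein kinase (chromosome 3, 55242364 to 55539068, plus strand), had 80 and 55 trailing reads and 43 and 9 wavefront reads. Scaled CPM were 152 and 115 against 72.2 and 52.6, without overlap. The log2 fold change was -1.01 ± 0.33 and did not pass (edgeR adjusted p = 0.123), nor under any of 11 alternatives. In limma it was -1.37 ± 0.50 (adjusted p = 0.680). Per 100 Dclk1 reads, Dcx had 21.3 and 45.5 reads in trailing cells and 4.65 and 0 at the wavefront, where the 95% intervals were 0.546 to 17.9 and 0 to 50.7. Both overlapped that of trailing replicate 1 (11.8 to 36.2), and that of wavefront replicate 2, with 9 Dclk1 reads, also overlapped that of trailing replicate 2 (27.1 to 74.2). On the opposite strand Dclk1 overlaps the antisense gene Gm42609 by 25666 bases and the protein-coding gene Gm21954 by 10226 bases, neither with values here.

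**Figure D3:**
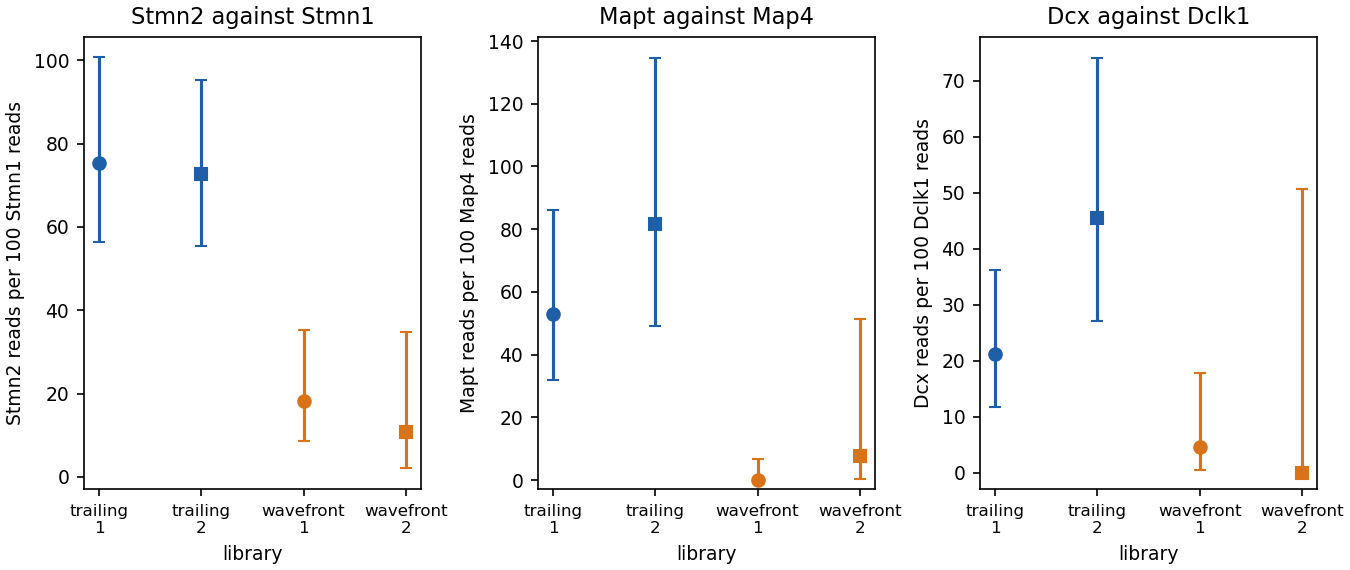
Reads of Stmn2 per 100 Stmn1 reads, of Mapt per 100 Map4 reads and of Dcx per 100 Dclk1 reads in each library (trailing blue, wavefront orange; bars are 95% exact binomial counting intervals). For Stmn2 the wavefront intervals end at 35.2 and 34.7, below the trailing ones, while for Mapt that of wavefront replicate 2 ends at 51.2 and overlaps the trailing intervals, and for Dcx both wavefront intervals overlap that of trailing replicate 1.

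Of the 9 genes tested by counts, 7 had both wavefront libraries below both trailing libraries in scaled CPM, a pattern that 20.9% of all tested genes showed (39.1% did not overlap in either direction). The exceptions were Map1b and Map4. Fitted log2 fold changes below -3 were seen for Stmn2, Stmn3, Mapt and Dcx and for 0.504% of all genes. The named genes passed the filter through their trailing reads, so their number is not evidence by itself. Without wavefront replicate 2 the count test again called Stmn2, Stmn3, Mapt and Dcx, and 1.27% of all genes were then lower. Without wavefront replicate 1 it called Stmn2, Stmn3, Dcx and Map1b but not Mapt, and 0.648% of all genes were lower. DESeq2 called Stmn2 and Stmn3 and gave 4 members no adjusted p, with 0.286% of all genes lower, 0.0781% higher and 0.364% in either direction. The authors' deposited p-values, adjusted here over 14589 genes, called Stmn2 alone, with 0.0685% lower, 0.0206% higher and 0.0891% in either direction.

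In limma the median over all genes was -0.35, against 0.01 in the count test, so its values are read against that shift. On this scale all 10 members lay below 0, and Map4, at -0.33 ± 0.47, was at that median. After CPM were divided by the TMM factors, limma called Stmn2, Stmn3, Mapt and Dcx among 44 genes (0.282% of all genes lower).

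**Figure D4:**
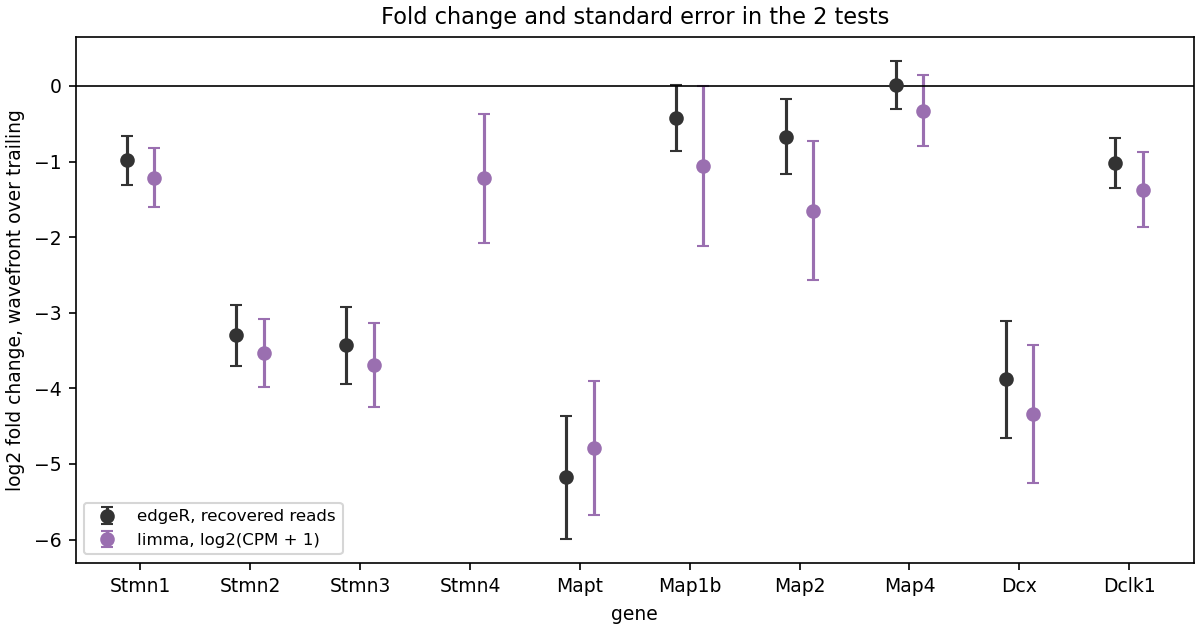
Log2 fold change, wavefront over trailing, with its standard error as the bar, for each gene in edgeR (black) and limma (purple); Stmn4 has no edgeR value, and the edgeR values of Mapt and Dcx depend on the prior count because they rest on 1 and 2 wavefront reads. Stmn2, Stmn3, Mapt and Dcx lie below -3 in both tests, while Stmn1 and Dclk1 lie near -1.

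Levels of different genes were compared per kilobase of merged exons (scaled CPM per kb). In trailing cells Stmn1 (128 ± 22.4, SD, n = 2) and Map1b (118 ± 6.29) were highest and their libraries overlapped. They were followed by Stmn3 (76.7 ± 14.2) and Stmn2 (32.5 ± 4.84), each apart from the next. Dclk1 (8.72 ± 1.67), Mapt (7.71 ± 1.30), Stmn4 (7.50 ± 6.41) and Map4 (5.82 ± 0.791) came next, and each of these overlapped its neighbour. Dcx (3.34 ± 1.13) and Map2 (2.30 ± 0.165) were lowest. At the wavefront Map1b (86.6 ± 74.0) and Stmn1 (68.8 ± 23.1) again led and overlapped, but the next gene, Stmn3, stood at 6.27 ± 1.59. Stmn2 was then at 3.21 ± 0.119, under Map4 (5.67 ± 0.923) and Dclk1 (4.08 ± 0.907). Mapt (0.388 ± 0.549) and Dcx (0.133 ± 0.188) were last, below Map2 (1.10 ± 1.05), and neighbours among these 3 overlapped. With the longest transcript as the length, 5 of 10 members kept their rank in trailing cells and 5 of 10 at the wavefront, with Stmn1 and Map1b still the highest pair in both.

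Markers of neurons that are not members moved with these genes. The 12 listed neuronal markers, which include Elavl3, Tubb3, Nefl and Dbh, summed to 3702 and 3890 scaled CPM in the trailing libraries and to 1221 and 982 at the wavefront. In edgeR 9 of 11 tested were lower (1.34% of all genes). Several passed the filter through their trailing reads, so this count is not evidence by itself. Rtn1 had 58 and 64 trailing reads against 4 and 2, and Th had 46 and 50 against 3 and 0. All 12 were detected in both trailing libraries and in wavefront replicate 1, and 10 in wavefront replicate 2. Stmn2 had 4.40 and 5.17 reads per 100 reads of this list in trailing cells and 1.51 and 1.79 at the wavefront (smallest p of an exact permutation test 0.333). This ratio depends on which genes make up the list. In edgeR the log2 fold change was -3.30 for Stmn2, against -4.59 for Dbh, -3.65 for Nefl and -1.82 for Tubb3. Gap43, a growth cone protein in the same list, had 218 and 245 trailing reads against 229 and 54 and did not pass (-0.39 ± 0.33, edgeR adjusted p = 0.795). The sum of the 10 gut mesenchyme markers went the other way, from 167 and 168 scaled CPM to 386 and 976. Col3a1 gave most of these reads, with 65 and 58 trailing reads against 132 and 94. Des had 8 and 6 against 73 and 10. Pdgfra (1 and 1 against 2 and 10), Pdgfrb (1 and 1 against 1 and 8) and Acta2 (1 and 1 against 0 and 10) were high only in wavefront replicate 2. Des and Col3a1 of 3 tested were higher in edgeR, beside 0.399% of all genes. The 7 erythroid markers had 110 reads in wavefront replicate 2 and 0 to 2 in each other library, with Hba-a2 among those at 0 throughout. The 8 gut epithelium markers had 4 and 3 trailing reads against 14 and 10, the 4 endothelial markers 9 and 15 against 17 and 7, and the 3 leukocyte markers 1 and 5 against 2 and 0, with Ptprc and Tyrobp at 0 throughout. The part of these other cells in the values of the 10 genes was not tested.

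A wider set of 103 other microtubule genes was listed by role. Of 68 tested by counts 1 fell, 0 rose and 67 did not pass, beside 1.74% of all genes called in either direction, and 9 of the 68 had an unadjusted p under 0.05, as did 570 of all 5759 genes. Their median log2 fold change was -0.07, against 0.01 for all genes. In limma 0 of 96 passed, with 13 at an unadjusted p under 0.05, beside 858 of all 12519 genes. The gene that fell was Map6, a protein that protects microtubules from cold in neurons, which had 25 and 26 trailing reads against 6 and 4 (log2 fold change -1.90 ± 0.52, edgeR adjusted p = 0.0396). DESeq2 gave Map6 no adjusted p, and the authors' deposited p-values, adjusted here, gave it 0.9997. Its adjusted p was 0.00424 without wavefront replicate 2 and 0.157 to 0.618 with the replicate block or without any 1 of the other libraries, and it was 0.0525 when ribosomal RNA genes were left out.

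By role, the 8 tested structural MAPs and doublecortin relatives other than the 10 genes had a median log2 fold change of -0.94, and 6 lay below 0. The most abundant were Map1lc3b, the light chain 3 protein of autophagosomes (-0.70 ± 0.33, edgeR adjusted p = 0.457), and Map7d1, a partner of kinesin-1 (0.27 ± 0.34, edgeR adjusted p = 0.872). For 13 plus-end and cortical capture proteins the median was 0.01 and 0 passed. Mapre1, the end-binding protein EB1, had 288 and 185 trailing reads and 310 and 93 wavefront reads (0.19 ± 0.33, edgeR adjusted p = 0.920). Its relative Mapre2 had 124 and 97 against 84 and 17 (-0.80 ± 0.31, edgeR adjusted p = 0.293). Among 14 severing, depolymerising and minus-end proteins the median was 0.18 and 0 passed, with Fignl1, an AAA ATPase related to microtubule-severing fidgetin, at 0.22 ± 0.31 and the gamma-tubulin complex protein Tubgcp2 at 0.62 ± 0.33. The 12 spindle MAPs had a median of 0.16 and 0 passed. Tpx2, the activator of Aurora A on the spindle, had 63 and 74 trailing reads and 123 and 33 wavefront reads (0.55 ± 0.30, edgeR adjusted p = 0.570). For 12 tubulin modification and folding genes the median was -0.18 and 0 passed, with the tubulin cofactors Tbcb at -0.46 ± 0.34 and Tbcd at 0.24 ± 0.33. For 10 kinases and phosphatase subunits that act on these proteins the median was -0.19 and 0 passed. Gsk3b, a kinase that phosphorylates tau and MAP1B, was at 0.17 ± 0.32, and Cdk1, which phosphorylates Stmn1 in mitosis, at -0.26 ± 0.31. At an unadjusted p under 0.05, edgeR had 570 of all 5759 genes and limma 858 of all 12519, in either direction. EdgeR had 4 of the 8 structural MAPs and doublecortin relatives, all lower. Of the 13 plus-end genes it had 4, with Ckap5 higher (0.66) and Mapre2, Dst and Apc2 lower. It also had 1 of the 12 modification genes and 0 in the severing, spindle and kinase lists. Limma had 4 of 13 structural MAPs and doublecortin relatives, all lower. It also had 2 of 19, 2 of 18 and 3 of 17 in the plus-end, severing and kinase lists, 2 of 18 modification genes and 0 of 12 spindle genes.

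**Figure D5:**
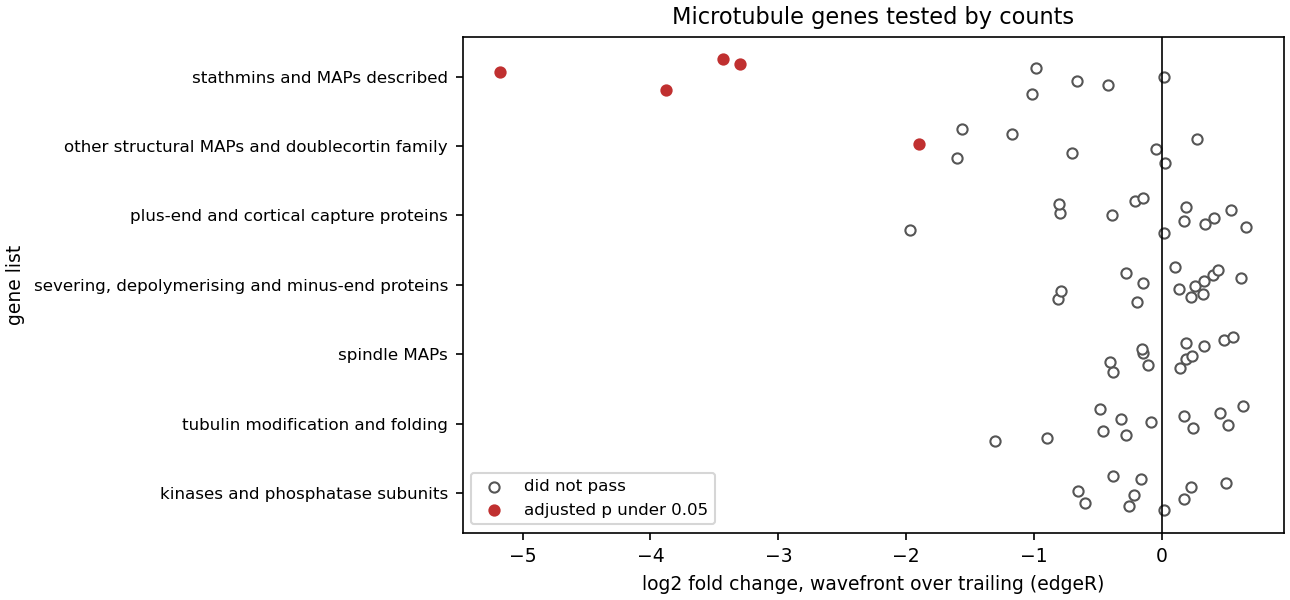
Each point is the edgeR log2 fold change, wavefront over trailing, of a tested gene, by list; filled red points passed at an adjusted p under 0.05 and open points did not. Outside the genes described here Map6, at -1.90, is the only filled point, and the spindle and severing lists spread on both sides of 0.

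The genes with the pattern most like that of Stmn2 over the 4 libraries, by distance between log2 scaled CPM centred on each gene's mean, were Stmn3 (distance 0.334), Nap1l2, a nucleosome assembly protein of neurons (0.392), and Slc18a3, the vesicular acetylcholine transporter (0.526), out of 5758 genes searched. Nap1l2 had 31 and 32 trailing reads against 5 and 1, and Slc18a3 had 24 and 30 against 2 and 1. Nearest to Stmn1 were Gatd1 (0.0813), Zfp35 (0.0921) and the axonal kinesin Kif1a (0.133), with 11 or fewer reads in each wavefront library. These distances rest on 4 libraries and few reads and are given as a description.

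Promoter sequence from RefSeq (GRCm38.p6) was matched for 6 of the 10 genes: Stmn3, Map1b, Map2, Map4, Dcx and Dclk1. Shown are the 150 bases before the start of Stmn3, which fell, and of Map1b, which did not pass. Capitals mark the letters CANNTG, the E-box that basic helix-loop-helix factors can bind, and GGGCGG or its reverse complement, a GC box.
Stmn3 (chr2:181314501-181314650, minus strand): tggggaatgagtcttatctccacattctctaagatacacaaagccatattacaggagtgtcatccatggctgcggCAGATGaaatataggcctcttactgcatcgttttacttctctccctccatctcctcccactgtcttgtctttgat
Map1b (chr13:99516603-99516752, minus strand): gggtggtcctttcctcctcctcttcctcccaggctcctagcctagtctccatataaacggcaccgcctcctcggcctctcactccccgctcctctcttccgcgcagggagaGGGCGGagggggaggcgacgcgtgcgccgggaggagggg

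In the 250 bases before its start Stmn3 held 1 CANNTG and 0 GGGCGG, with a GC content of 48.8%. Map1b held 1 of each, at 66.4% GC. Both annotated starts of Dcx, whose windows overlap, had 0 of either motif, at 41.6 and 44.8% GC. Map2 had 0 CANNTG and 5 GGGCGG at 81.2% GC. The upstream start of Map4 had 0 and 3 at 74.0% GC, and its other start 2 and 0 at 43.6%. The starts of Dclk1 had 2 and 1 CANNTG and 0 GGGCGG, at 52.4 and 46.8% GC. Of 32851 windows of the same length in the RefSeq table, 66.2% held CANNTG and 32.7% held GGGCGG on either strand, so a match describes these windows and nothing more.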

How the data were processed

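RNA from sorted cells was profiled in 4 libraries, 2 per location, made with the Nextera XT kit, which does not mark strand. STAR 2.5.2b, featureCounts, DESeq2, bcl2fastq 2.17 and FastQC 0.11.9 are named with build GRCm38 in the submitters' processing notes. The annotation release, and how reads with several hits were treated, were not found in the labels. The authors' deposited table holds, per the file headers, a CPM column per library, a BaseMean signal (used here only for the alternative fit), a log2 fold change, its standard error, a Wald score and an unadjusted p-value.

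Of 27606 rows, 428 repeated an identifier and were kept once. All CPM values (100%) were whole multiples of the CPM of 1 read within 0.01 reads, so reads were recovered as whole counts from the deposited CPM; the 958 rows without a symbol were kept under their identifier. Library totals were 260217 to 543070 reads. The planned test was limma 3.58.1 with trend on log2(CPM + 1), keeping a mean CPM above 1. The count test was edgeR 4.0.16 (TMM, filterByExpr with 10 reads, location as the only term). DESeq2 1.42.0 was an alternative (R 4.3.3). All were fitted on all genes, two-sided, with Benjamini-Hochberg adjustment and a threshold of 0.05. They were also run on simulated reads with known fold changes, where a required outcome was set for edgeR alone. That simulation used a common dispersion and did not model differences in composition between libraries. Standard errors in edgeR are the fold change over the square root of F. Other alternatives were pseudocounts, filters, scalings, a replicate block and leaving out each library.

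The 10 genes and the lists were chosen with earlier results of these data known. Every member is named; of the other lists, genes that passed the count test and the 2 tested genes with the most reads in each; and the 3 genes nearest to Stmn2 and to Stmn1. Coordinates are GENCODE M21.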

Additional observations from a re-analysis of the deposited data

How the results depend on the processing

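Stmn2 passed in all 11 alternative settings of the count test, Stmn3 in 10 of 11, Mapt and Dcx in 8 of 10 each, and Map1b in 1 of 11, without wavefront replicate 1; Stmn1, Map4, Dclk1 and Map2 passed in 0. The count test called 100 genes, against 14 in DESeq2, 13 by the authors' deposited p-values, 61 with the replicate block and 40 to 143 with 1 library left out. Limma called 0 genes, and 3 with a pseudocount of 5, 5 without a filter, 33 with a mean CPM above 5, 44 after division by TMM factors, 4 outside ribosomal RNA, 52 with the replicate block and 0 to 0 with 1 library left out. Of the other microtubule genes the count test called 1, and 0 in DESeq2, 0 with ribosomal RNA genes left out, 2 without a filter, 0 by the authors' deposited p-values, 0 with the replicate block and 0 to 2 with 1 library left out; limma called 0, and 1 with the replicate block, which was Tppp3. The replicate block left Stmn2, Stmn3, Mapt and Dcx called in edgeR; same-numbered libraries deviated together only weakly (correlation 0.0589 over 5759 genes), and the labels do not say that the numbers pair libraries. With 1 library left out, Map1b ran from -1.78 to 0.29 in edgeR and from -2.44 to 0.32 in limma, and Map4 from -0.21 to 0.18 in edgeR and from -0.85 to 0.20 in limma, the positive Map1b values and that of Map4 in limma coming without wavefront replicate 2. Map4 in the count test was -0.0012 in DESeq2, -0.21 with scaling by library size alone, -0.00081 in the authors' deposited table and -0.033 with the replicate block; it was -0.12 without trailing replicate 2. The median of all genes was -0.20 with scaling by library size alone. By longest transcript 5 of 10 members kept their rank in trailing cells. The cause of these changes was not tested. Depth limits Stmn3, Stmn4, Mapt, Dcx and Map2, each with at most 1 read in wavefront replicate 2, and Stmn2, with 3 reads there.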
